A study of Mus musculus with 6 samples.

Results

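The 10 genes described here encode the 5 subunits of the transcription factor NF-kappaB (Nfkb1, Nfkb2, Rel, Rela and Relb) and 5 of its feedback inhibitors and modulators (Nfkbia, Nfkbie, Nfkbiz, Tnfaip3 and Bcl3). They were taken by gene symbol from a table of 55357 genes measured by RNA-Seq in cultured mouse astrocytes, and every one of the 10 was found once. All 10 also passed the filter for testing, which kept 15280 genes with a mean normalized count of at least 10.

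NF-kappaB is a family of dimers that bind a short DNA element, the kappaB site. In the canonical pathway the dimers are held in the cytoplasm by IkappaB proteins until the IKK complex marks the IkappaB for destruction, and in the noncanonical pathway the kinase NIK drives processing of the Nfkb2 product and frees dimers that contain RelB. Many genes of the pathway are themselves switched on by NF-kappaB, among them the inhibitors Nfkbia and Tnfaip3, so that the response limits itself. In astrocytes the pathway is known for driving cytokine, chemokine and adhesion molecule genes in inflammation.

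The cultures were cortical astrocytes prepared from C57BL/6 embryos at embryonic day 18. The 3 cultures named KE were transfected with a plasmid carrying FLAG-tagged BRAF K499E, a RASopathy mutant of the kinase BRAF, under the CMV promoter, which is active in most cell types. The 3 nontransfected cultures, NT, are labelled naive and received no plasmid. RNA was extracted 48 hours after transfection. The share of cells that took up the plasmid is not given, no empty or wild-type BRAF plasmid was analysed here, and the effect of the mutant therefore cannot be told apart from that of transfection. The labels number the replicates 1 to 3 without saying whether they are separate animals or preparations, so p-values measure the spread between these cultures, which may be technical.

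Values are normalized counts, that is, read counts per gene estimated with the tool Salmon and scaled between libraries with DESeq2. Numbers of reads given here are therefore approximate. Normalized totals ran from 30472429 to 30895529, and the smallest steps in the values put the libraries at about 24500000 (KE replicate 2) to 34100000 reads. Log-scale profiles correlated at 0.989 or more within a group and at 0.95 or less between groups, across genes. Braf was 36979 ± 3464 in KE and 894 ± 73.1 in NT (SD, n = 3 each), so each library matched its label as transfected or nontransfected. Gene counts cannot show whether the added Braf carries K499E. Astrocyte marker genes were present at a summed level of 259937 to 287967 in the 6 cultures, with none of the 12 at 0. Microglia and macrophage markers were summed at 45219 to 53227 in NT and at 5575 to 7705 in KE, again with none of the 15 at 0.

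Promoter sequence is shown first because it holds the element that NF-kappaB reads. RefSeq windows of 250 bases before the transcription start, on the build GRCm38.p6, were matched by symbol for 7 of the 10 genes and gave 10 windows, with several starts for Nfkb2 and Tnfaip3. Nfkb1, Relb and Nfkbiz had no entry. The 10-base kappaB consensus, searched on both strands, was found in 5 of the 7 genes (Nfkb2, Rel, Nfkbia, Nfkbie and Tnfaip3) and in 7 of the 10 windows. Over all RefSeq windows of the same length, 3.9% of 32851 windows and 4.46% of 27025 genes held it. Nfkb2 starts 2 and 3 also hold a match, and their windows are not printed. The windows below are those of these 5 genes, at the first start for Nfkb2 and Tnfaip3, with matches to the consensus in capitals. They run in transcript direction, 5′ to 3′. They lie at chr19:46304487-46304736 (+) for the first Nfkb2 start, chr11:23770970-23771219 (-) for Rel, chr12:55492648-55492897 (-) for Nfkbia, chr17:45555450-45555699 (+) for Nfkbie and chr10:19015411-19015660 (-) for the first Tnfaip3 start.
Nfkb2: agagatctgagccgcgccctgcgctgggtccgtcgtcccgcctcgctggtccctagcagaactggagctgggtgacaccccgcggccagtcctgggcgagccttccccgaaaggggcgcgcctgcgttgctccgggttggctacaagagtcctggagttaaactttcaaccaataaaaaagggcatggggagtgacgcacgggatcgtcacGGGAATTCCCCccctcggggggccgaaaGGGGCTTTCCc
Rel: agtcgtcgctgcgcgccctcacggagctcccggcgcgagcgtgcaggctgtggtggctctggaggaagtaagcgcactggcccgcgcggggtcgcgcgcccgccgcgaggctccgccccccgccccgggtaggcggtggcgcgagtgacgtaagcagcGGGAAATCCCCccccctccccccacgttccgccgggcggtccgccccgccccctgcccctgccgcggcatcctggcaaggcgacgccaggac
Nfkbia: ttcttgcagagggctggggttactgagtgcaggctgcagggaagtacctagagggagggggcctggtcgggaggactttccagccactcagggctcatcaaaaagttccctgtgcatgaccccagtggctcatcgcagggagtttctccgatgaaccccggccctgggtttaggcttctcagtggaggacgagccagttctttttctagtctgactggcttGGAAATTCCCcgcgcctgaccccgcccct
Nfkbie: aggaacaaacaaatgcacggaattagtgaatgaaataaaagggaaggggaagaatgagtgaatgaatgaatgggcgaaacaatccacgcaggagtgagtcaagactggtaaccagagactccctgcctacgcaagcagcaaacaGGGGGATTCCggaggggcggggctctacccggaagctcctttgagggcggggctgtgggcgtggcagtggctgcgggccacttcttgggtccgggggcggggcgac
Tnfaip3: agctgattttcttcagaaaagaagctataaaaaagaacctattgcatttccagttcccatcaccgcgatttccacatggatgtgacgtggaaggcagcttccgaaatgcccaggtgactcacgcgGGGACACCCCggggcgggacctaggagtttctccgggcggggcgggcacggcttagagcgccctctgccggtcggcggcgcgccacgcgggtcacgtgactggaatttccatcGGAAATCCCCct

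In the Nfkb2 window the palindrome GGGAATTCCC lay 39 to 30 bases before the start, with an overlapping match shifted by a single base, and GGGGCTTTCC lay 11 to 2 bases before it. The Rel window held GGGAAATCCC at 92 to 83 bases before the start, again with a shifted match overlapping it. A lone match was found in Nfkbia, GGAAATTCCC at 29 to 20 bases, and in Nfkbie, GGGGGATTCC at 106 to 97 bases. Tnfaip3 held GGGACACCCC at 125 to 116 bases and GGAAATCCCC at 12 to 3 bases. Nfkbia and the first starts of Nfkb2 and Tnfaip3 had a match within the last 29 bases, whereas those of Rel and Nfkbie lay farther upstream. The Nfkb2 windows of starts 2 and 3 matched only at 236 to 227 bases (GGAATGTCCC) and 225 to 216 bases (GGGACTTTCC). These distances were compared after the matches were seen, and no share over all windows was counted for them. The Rela and Bcl3 windows held no consensus match, which says only that these letters are not in that window. A looser pattern, GGGNNNNNCC, of which every consensus match is also a match, occurred in 7 of 7 genes but also in 48.7% of all genes, and the windows of the members were 46.4 to 77.6% G and C. The interferon-type pattern GAAANNGAAA was in 0 of 7 genes and in 3.46% of all genes. These matches are descriptions of sequence, and binding was not measured.

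**Figure D1:**
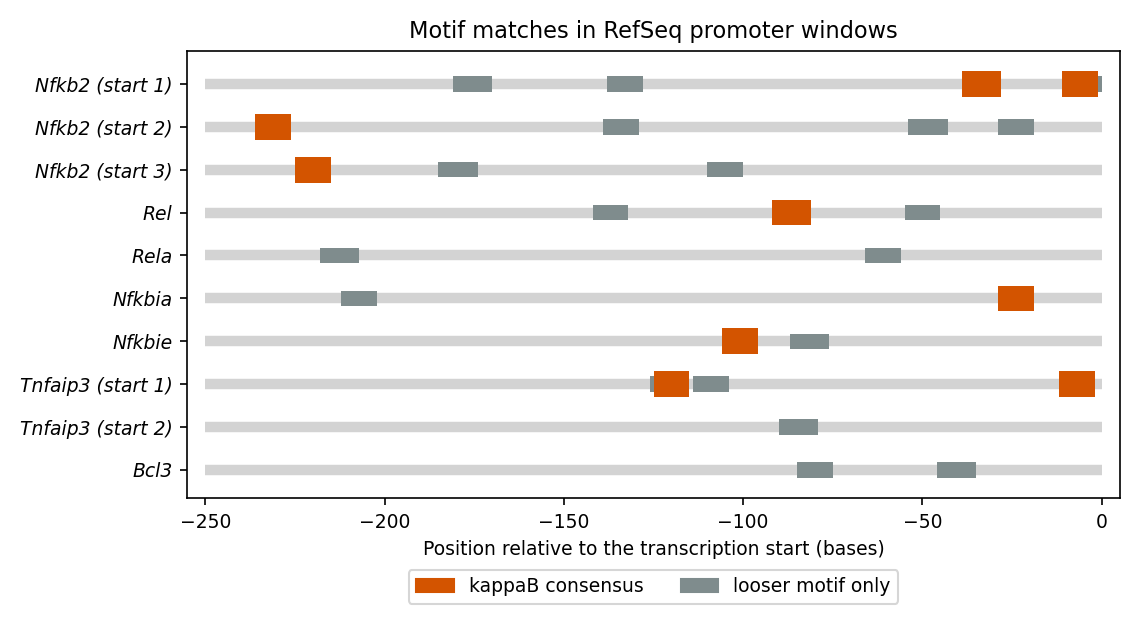
Matches to the kappaB consensus (orange) and to the looser pattern GGGNNNNNCC alone (dark grey) in the 10 RefSeq promoter windows (light grey bars) of 7 genes. The x axis is the position in bases relative to the transcription start, and 7 of the 10 windows hold a consensus match.

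To ask whether the NF-kappaB genes differed between BRAF KE-transfected and nontransfected astrocytes, limma was fitted to log2(normalized count + 1) across all 15280 genes, and a gene was called at a Benjamini-Hochberg adjusted p under 0.05. Of the 10 genes, 7 were higher in KE, 1 (Rel) was lower and 2 (Nfkb1 and Nfkbie) were not called. Over all tested genes 51.3% were called, 25.3% higher and 26.0% lower. The median log2 fold change (log2FC, KE over NT, on the log2(value + 1) scale) of the 10 was 0.28, beside 0.00 (0.002) for all tested genes, whose median absolute log2FC was 0.30. Apart from Tnfaip3 and Rel, the changes were therefore of moderate size, from 0.24 to 0.62 among the other genes that were called.

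**Figure D2:**
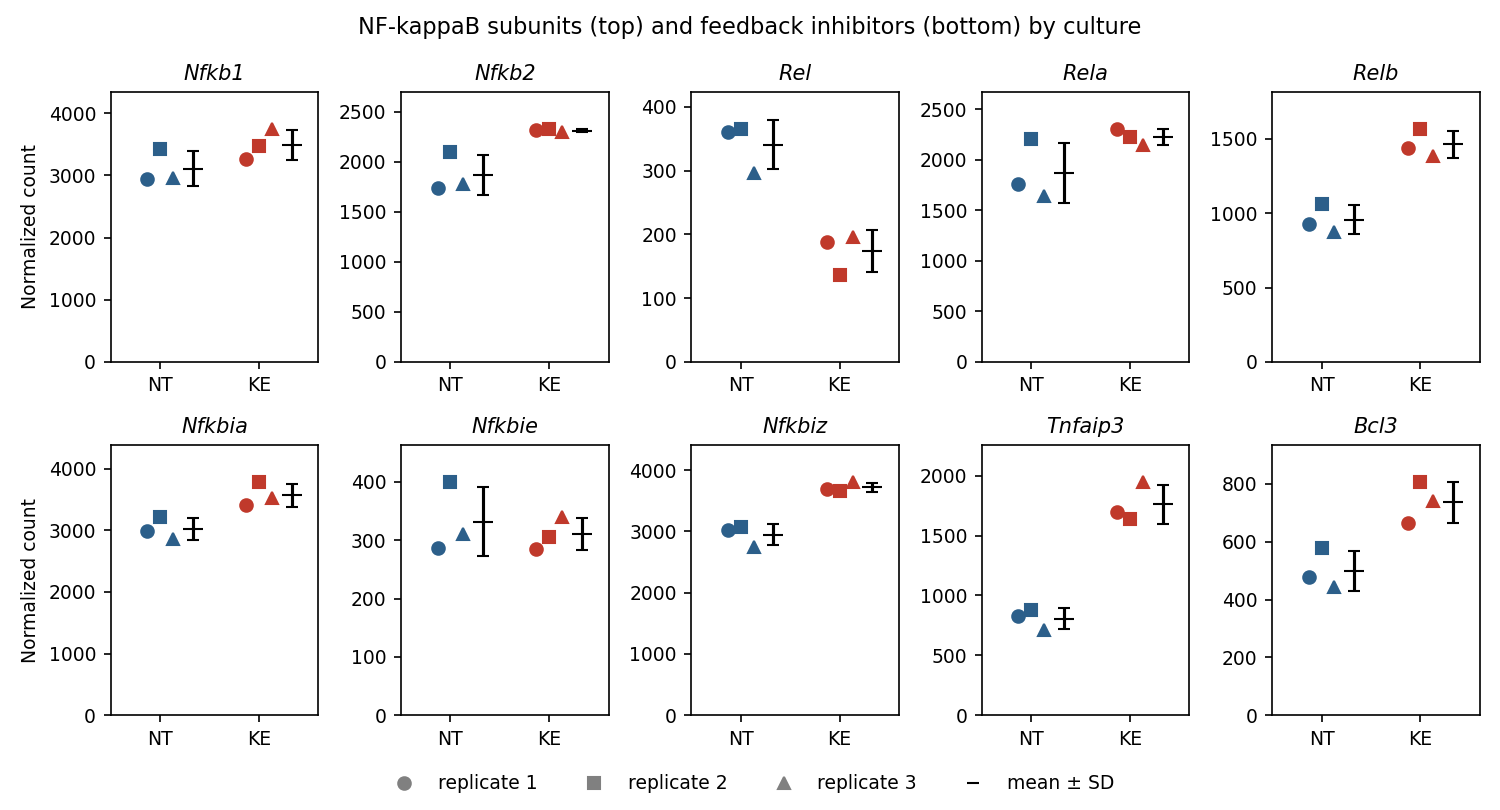
Normalized counts of the 5 NF-kappaB subunit genes (top) and 5 feedback inhibitor and modulator genes (bottom) in each culture. The mean and SD of each group (n = 3) are a bar beside the points, and each axis starts at 0. The KE cultures lie above all NT cultures for 6 genes and below them for Rel, and NT replicate 2 (blue square) is the highest NT culture for every gene.

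Among the subunits, Relb rose the most. This gene, on chr7:19339017-19363425 (-) of GRCm39, encodes the transactivating partner of the Nfkb2 product in the noncanonical pathway. Its normalized counts were 1440, 1565 and 1384 in KE replicates 1 to 3 and 930, 1063 and 874 in NT replicates 1 to 3. All KE cultures lay above all NT cultures, and the gap between the lowest KE and the highest NT culture was wider than the range within either group. The log2FC was 0.62 (SE 0.085, limma adjusted p = 1.24e-04).

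Nfkb2 (chr19:46292759-46303812, +) encodes p100, an inhibitor of RelB that is cut to the subunit p52. It measured 2312, 2324 and 2294 in KE and 1732, 2098 and 1780 in NT. The KE cultures were close together (2310 ± 15.2, SD, n = 3) and the NT cultures spread more widely (1870 ± 199), with no overlap. Nfkb2 rose by a log2FC of 0.31 (SE 0.075, limma adjusted p = 0.0054). Psd and 4833438C02Rik overlap Nfkb2 on the opposite strand and averaged 23.7 and 116 in KE, small beside Nfkb2 itself. The library kit keeps strand, but the strand setting of the counting is not given.

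Rela (chr19:5687493-5698161, +) encodes p65, the main transactivating subunit of the canonical pathway. It measured 2301, 2220 and 2141 in KE and 1760, 2201 and 1646 in NT. NT replicate 2 reached the KE range and the other NT cultures lay below it. The log2FC of 0.26 (SE 0.096) was called with limma (adjusted p = 0.0420), but the call did not hold in every setting. It was lost in the fit without a variance trend (adjusted p = 0.122) and on leaving out any culture other than NT replicate 2, with log2FC from 0.17 to 0.38 and adjusted p from 0.0014 to 0.157 over all alternatives.

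Nfkb1 (chr3:135290264-135397742, -) encodes p105, which is cut to p50, the common DNA-binding partner of p65. It measured 3265, 3470 and 3742 in KE and 2939, 3430 and 2950 in NT. The groups overlapped, through NT replicate 2 again. The log2FC was 0.17 (95% interval 0.0030 to 0.34, limma adjusted p = 0.0825) and was not called. Without NT replicate 2 it was 0.24 and was called (limma adjusted p = 0.0192). Gm43430 overlaps Nfkb1 on the same strand and was at 15.2 in KE and 2.99 in NT.

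Rel was the subunit that fell. This gene (chr11:23686847-23721264, -) encodes c-Rel, known mainly from lymphoid and myeloid cells. It measured 188, 136 and 197 in KE and 361, 365 and 296 in NT. Every KE culture lay below every NT culture, at 0.51 times the NT level. The log2FC was -0.98 (SE 0.15, limma adjusted p = 3.32e-04), and only 6.17% of the tested genes had a lower log2FC. Rel rested on the fewest reads of the 10 genes, about 109 (KE replicate 2) to 365 in a culture, against 245 to 4191 for the others. The microglia and macrophage markers fell in the same cultures, all 15 of 15 beside 26.0% of all tested genes, with a median log2FC of -3.31. Their part in the Rel difference was not tested, and in these bulk cultures fewer cells of a type and less RNA per cell cannot be told apart.

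Tnfaip3 changed the most of the 10 genes. It lies on chr10:18874201-18891405 (-) and encodes A20, a ubiquitin-editing enzyme that shuts off signalling from TNF and Toll-like receptors upstream of IKK. It measured 1700, 1636 and 1943 in KE and 828, 878 and 712 in NT. The lowest KE culture was well above the highest NT culture. Tnfaip3 rose 2.18-fold (log2FC 1.13, SE 0.094, limma adjusted p = 2.60e-06), above the log2FC of 95.95% of the tested genes. Over all alternatives its log2FC stayed between 1.04 and 1.19. The windows printed above hold a consensus match for Tnfaip3, Nfkb2 and Nfkbia, which rose, for Rel, which fell, and for Nfkbie, which was not called.

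Bcl3 (chr7:19541553-19557570, -) encodes an atypical IkappaB that enters the nucleus and works with p50 and p52 homodimers. It measured 663, 805 and 742 in KE and 477, 578 and 445 in NT. The groups did not overlap, and Bcl3 rose by a log2FC of 0.56 (SE 0.11, limma adjusted p = 0.0016). Its increase was close to that of Relb, which lies 178127 bases away on the same chromosome.

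Nfkbiz (chr16:55631738-55659262, -) encodes IkappaB-zeta, another nuclear IkappaB, needed for a subset of secondary NF-kappaB targets. It measured 3699, 3661 and 3797 in KE and 3017, 3075 and 2752 in NT. All KE cultures were higher, with a log2FC of 0.34 (SE 0.060, limma adjusted p = 7.45e-04).

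Nfkbia (chr12:55535332-55539432, -) encodes IkappaB-alpha, the classical cytoplasmic inhibitor that is degraded and resynthesized in each round of activation. It measured 3419, 3778 and 3522 in KE and 2996, 3214 and 2858 in NT. The groups did not overlap but lay close, and the rise was small (log2FC 0.24, SE 0.064, limma adjusted p = 0.0090).

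Nfkbie (chr17:45866585-45874661, +) encodes IkappaB-epsilon, a cytoplasmic inhibitor that acts later than IkappaB-alpha. It measured 285, 306 and 339 in KE and 287, 399 and 310 in NT. The groups overlapped, and the log2FC of -0.09 had a 95% interval of -0.38 to 0.21 (limma adjusted p = 0.609), so that changes within this interval could not be told from 0. Without NT replicate 2, its highest culture, the log2FC was 0.05. Of the 5 inhibitors and modulators, Nfkbie was the gene that was not called.

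**Figure D3:**
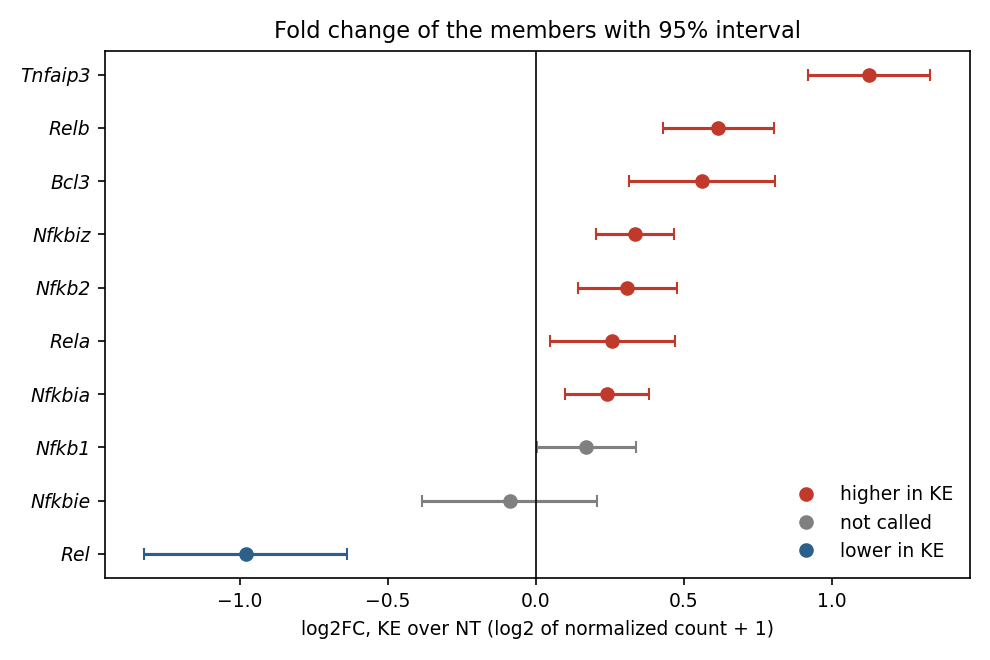
The log2FC (KE over NT, log2 of normalized count + 1) of each of the 10 genes with its 95% interval from limma, n = 3 cultures a group, colored by the call. Tnfaip3 stands at 1.13 and Rel at -0.98, and the intervals of the other genes lie between -0.38 and 0.81.

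The groups did not overlap for 7 of the 10 genes, 6 with KE above NT and 1 with KE below, beside 59.9% of all tested genes (30.1% above and 29.9% below). Groups that do not overlap were thus common in this comparison as a whole. Summed normalized counts of the 5 inhibitors and modulators were 9766 to 10343 in KE and 7076 to 8143 in NT, without overlap. Those of the 5 subunits were 9506 to 9757 in KE and 7546 to 9157 in NT, also without overlap.

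The NT cultures differed among themselves in a shared way. NT replicate 2 was the highest NT culture for 10 of the 10 genes, whereas it was the highest for 34.9% of all tested genes. NT replicate 3 was the lowest for 7 of the 10, beside 32.0% of all tested genes. NT replicate 2 was also highest for 17 of the 21 tested NF-kappaB target genes and 8 of the 10 interferon response genes. It was highest for 7 of 15 microglia and macrophage markers and 2 of 12 astrocyte markers. NT replicate 3 was the lowest for 17 of the 21 target genes, 9 of the 10 interferon response genes and 14 of the 15 microglia and macrophage markers, but for 2 of the 12 astrocyte markers. This order was looked at after the values were seen, the genes share the libraries, and its source was not tested. Without NT replicate 2 the number of members called higher was 8, and over the 6 fits that leave out a culture it was 6 to 8, with 1 called lower in each. In KE no culture stood out in this way, with the highest value in replicate 1 for 1 gene, in replicate 2 for 4 and in replicate 3 for 5.

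Levels of different genes were compared as normalized counts per kilobase of merged exons. Nfkbia stood highest in both groups, at 1845 ± 95.5 per kb in KE and 1560 ± 92.6 in NT (SD, n = 3 each). Rela (678 ± 24.5 in KE, 571 ± 89.6 in NT) and Nfkbiz (662 ± 12.5 in KE, 525 ± 30.7 in NT) followed, and did not differ from each other beyond their spread. In NT the next levels were those of Nfkb1 at 242 ± 21.8 and Nfkb2 at 237 ± 25.2 per kb, whose values overlapped, then Relb at 188 ± 19.1. Bcl3 (95.4 ± 13.3), Tnfaip3 (83.0 ± 8.77) and Nfkbie (79.2 ± 14.1) formed a low NT group in which neighbours overlapped, and Rel was lowest at 43.9 ± 4.97.

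Per kb of merged exons, the order changed in KE in the middle of the scale. Nfkb2 (292 ± 1.92 per kb), Relb (288 ± 18.2) and Nfkb1 (272 ± 18.6) then overlapped, and Relb no longer lay below both. Tnfaip3, at 181 ± 16.7 per kb, had moved out of the low group and above Bcl3 at 141 ± 13.5, without overlap (253 and 234 per kb of the longest transcript, with overlap). Nfkbie (74.0 ± 6.57) and Rel (22.4 ± 4.21) remained lowest. The order depends on the length used. Per kb of the longest transcript, Nfkb1, which has 12.848 kb of merged exons but 4.802 kb in that transcript, measured 727 in KE and 647 in NT and overlapped with Rela. By that length Relb overlapped with Nfkb2 in NT already (281 and 265) and lay above it in KE (430 and 327), with Nfkb1 above both in each group. Nfkbia stayed highest and Rel lowest with either length.

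**Figure D4:**
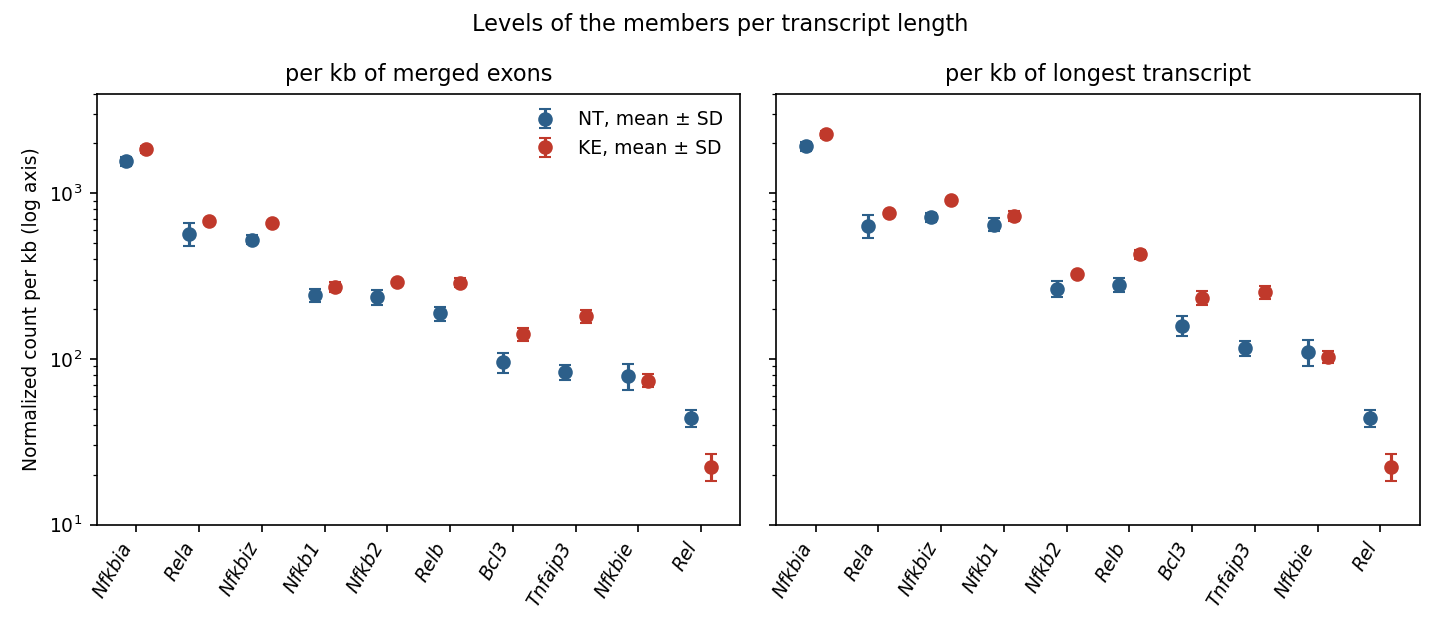
Normalized count per kilobase of merged exons (left) and of the longest transcript (right) for the 10 genes on a log axis, as mean and SD of 3 cultures for NT (blue) and KE (red), ordered by the NT level on the left. Nfkbia is highest and Rel lowest in both panels, and Nfkb1 moves up on the right.

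The make-up of the subunit mRNAs was taken as each gene's share of the 5 subunits' summed level per kb of merged exons. The Rela share was 43.7% ± 1.3 in KE and 44.4% ± 1.5 in NT (SD, n = 3), the largest by this length. The Relb share was 18.5% ± 0.981 in KE and 14.7% ± 0.375 in NT. Its KE values were 18.2%, 19.6% and 17.8% and its NT values 15.1%, 14.3% and 14.7%, without overlap. The Rel share was 1.44% ± 0.284 in KE and 3.44% ± 0.34 in NT, also without overlap. The shares of Nfkb1 (17.5% ± 1.36 and 18.9% ± 0.701) and Nfkb2 (18.8% ± 0.0923 and 18.5% ± 0.688) overlapped between the groups. With the longest transcript the Relb share was 19.0% in KE and 15.0% in NT, and the Rel share 0.989% and 2.35%. By that length the Nfkb1 share was 32.1% in KE and 34.6% in NT, beside 33.5% and 33.9% for Rela, and their values overlapped in each group. By mean, Rela had the largest share in KE with either length, whereas in NT the largest share depended on the length used. No test was made on these shares, which come from the same values as the fold changes.

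Next, 36 other genes of the pathway were examined, and all 36 were tested. Of these, 9 were higher in KE, 3 were lower and 24 were not called, with a median log2FC of 0.04. That is 12 of 36 called, below the 51.3% of all tested genes. The number called lower was 5 after quantile normalization and 5 without KE replicate 3. Btrc, Rnf31, Tnip1, Zc3h12a, Irak3, Chuk, Ikbkb, Map3k14, Itch and Tnip2 are named below after their values were seen, and the other pathway genes by the naming rule.

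Of the 8 genes of IKK activation, 2 were higher and 6 were not called. Ikbkg, which encodes the regulatory IKK subunit NEMO, was 2213 ± 87.9 in KE and 1704 ± 132 in NT (log2FC 0.38, limma adjusted p = 0.0010). Btrc, part of the ubiquitin ligase that recognizes phosphorylated IkappaB, had a log2FC of 0.30 (limma adjusted p = 0.0076). The genes of the catalytic subunits, Chuk and Ikbkb, each had a log2FC of 0.02 and were not called. Map3k7, the IKK-activating kinase TAK1, had the highest mean of the list. Its log2FC of -0.16 was not called (limma adjusted p = 0.0629), although its groups did not overlap. It was called with a block for the replicate number (limma adjusted p = 0.0355) and after quantile normalization (limma adjusted p = 0.0466). Without KE replicate 3 the log2FC was -0.205 and was called (limma adjusted p = 0.0271), and without KE replicate 2 it was -0.095 and was not.

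Of the 5 controllers of the noncanonical pathway, 1 was called. Traf2, an adaptor in the complex that degrades NIK, rose by a log2FC of 0.36 (limma adjusted p = 0.0039). Map3k14, which encodes NIK itself, was 309 ± 52.3 in KE and 333 ± 11.4 in NT and was not called (limma adjusted p = 0.441), unlike Nfkb2 and Relb. Traf3, the most abundant of the list by mean count, had a log2FC of -0.08 (limma adjusted p = 0.409).

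Of the 11 adaptors and ubiquitin ligases, 2 were higher and 1 was lower. Myd88, the adaptor of Toll-like and IL-1 receptors, was 1733 ± 55.5 in KE and 1005 ± 60.2 in NT (log2FC 0.79, limma adjusted p = 3.84e-06). Rnf31, the catalytic subunit of the linear ubiquitin ligase, rose by a log2FC of 0.71. Traf1, an adaptor of TNF receptors that is itself a target gene, was 70.2, 60.2 and 70.9 in KE and 224, 227 and 85.1 in NT. NT replicate 3 lay close to the KE cultures, and the log2FC was -1.27 (limma adjusted p = 0.0064). The Traf1 log2FC was -1.74 without that culture, -1.05 without NT replicate 1 and -1.04 without NT replicate 2. Irak1, with the highest mean, was not called (log2FC 0.05, or -0.023 without KE replicate 3).

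Of 12 further inhibitors, 4 were higher, 2 were lower and 6 were not called, a share of calls near the 51.3% of all tested genes. The rises were Rnf11 (0.46), Zc3h12a (0.40), Tax1bp1 (0.32) and Tnip1 (0.21) in log2FC. Rnf11, Tax1bp1 and Tnip1 encode partners of A20, as do Itch (log2FC -0.17, limma adjusted p = 0.0730) and Tnip2 (-0.08, limma adjusted p = 0.566), which were not called. Tnip3, a further A20-binding protein, fell furthest, with 14.3, 11.1 and 11.5 in KE and 191, 221 and 82.6 in NT (log2FC -3.53, limma adjusted p = 7.79e-06). Irak3, a decoy kinase of Toll-like receptor signalling known from monocytes and macrophages, had a log2FC of -1.90. The microglia and macrophage markers fell in the same cultures as Traf1, Tnip3 and Irak3, and their part in these falls was not tested.

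Target genes of NF-kappaB, 22 cytokine, chemokine, adhesion and stress genes, were then compared, of which 21 were tested and Csf2 was too low. In KE, 15 were higher, 3 were lower and 3 (C3, Sod2 and Mmp9) were not called, with a median log2FC of 1.00. This list was written with earlier results of these data known, so its counts are a description and not a test. Over all tested genes 51.3% were called, 25.3% higher and 26.0% lower. The largest rises were those of Cxcl10, a chemokine for T cells (16216 ± 454 in KE, 973 ± 299.9 in NT, log2FC 4.10), Ptgs2, the inducible cyclooxygenase (3946 ± 485 and 381 ± 156, log2FC 3.46), Gadd45b, a stress-response gene (2204 ± 14.8 and 317 ± 52.3, log2FC 2.81), and the cytokine Il6 (505 ± 53.2 and 94.8 ± 35.2, log2FC 2.48). The limma adjusted p of these 4 genes was 1.05e-05 or lower. Each of these log2FC values was above that of Tnfaip3, the largest of the 10 NF-kappaB genes.

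The genes that fell were Tnf, Il1b and Saa3. Tnf, the cytokine that activates the canonical pathway, was 54.2, 35.0 and 51.6 in KE and 713, 852 and 305 in NT (log2FC -3.60, limma adjusted p = 4.77e-06). Il1b, another activating cytokine, was 23.7 ± 7.26 in KE and 128 ± 38.2 in NT (log2FC -2.37, limma adjusted p = 4.60e-05). Saa3, an acute-phase gene, was 3757 ± 327 and 9101 ± 1632 (log2FC -1.26, limma adjusted p = 5.75e-06). All KE cultures lay below all NT cultures for each of them, as they did for the 15 microglia and macrophage markers, whose part was not tested. Targets of NF-kappaB therefore moved in both directions, and Cxcl10 is also an interferon response gene.

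**Figure D5:**
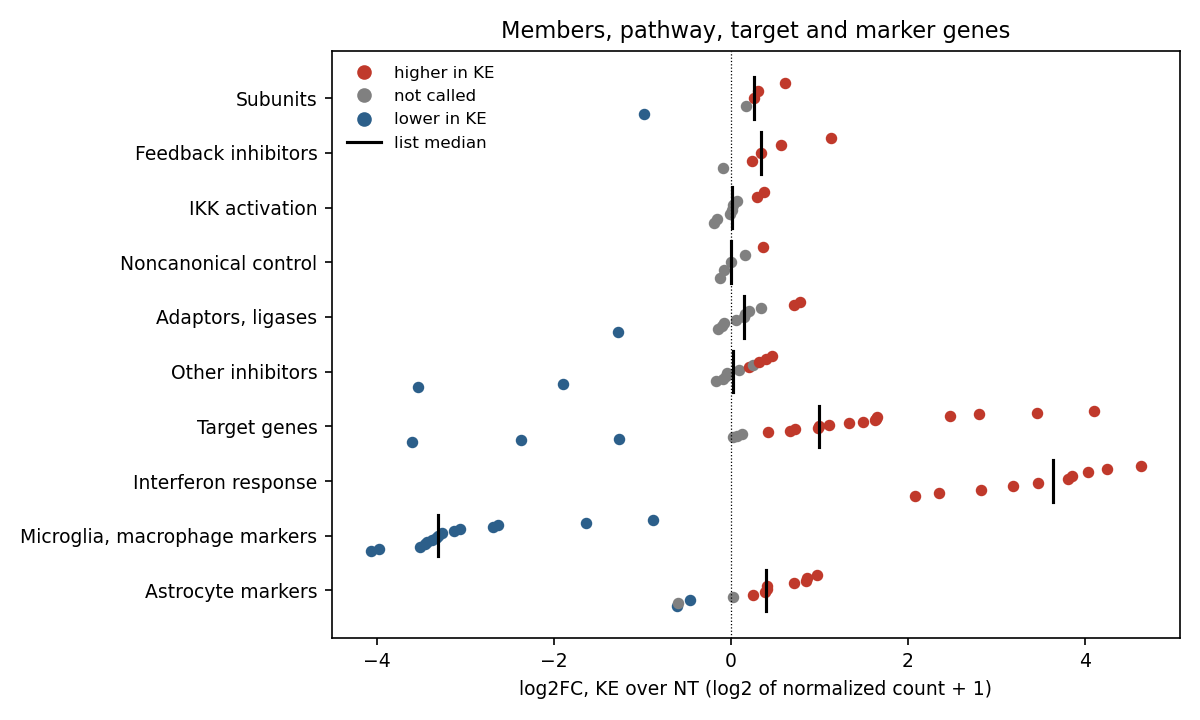
The log2FC (KE over NT, log2 of normalized count + 1) of every tested gene in 10 lists, each point a gene colored by its limma call, with the list median as a vertical bar. Subunits sit near a median of 0.26, and the inhibitors and modulators (row of feedback inhibitors) near 0.34. Target genes spread from -3.60 to 4.10, interferon response genes lie above 2 and microglia and macrophage markers below -0.8.

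Markers of other cells and of the interferon response moved in the same cultures. Beside their counts, 51.3% of all tested genes were called, 25.3% higher and 26.0% lower. All 15 microglia and macrophage markers fell, among them the complement gene C1qa (log2FC -3.12) and the integrin gene Itgam (-4.07). All 10 interferon response genes rose, with a median log2FC of 3.64 and summed counts of 200357 to 205564 in KE and 17665 to 27653 in NT. Mx2 had the largest log2FC of them (4.64) and Ifit3 the highest mean count (log2FC 4.04). Of the 12 astrocyte markers 8 rose and 2 fell (median log2FC 0.40), with Glul at 0.38 and Fabp7 at -0.61. Slc1a3 was at 0.25, or 0.09 and not called after quantile normalization.

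Neuronal genes were low, and 1 of the 6 tested, Tubb3 (log2FC 0.43), was called, beside 51.3% of all tested genes. Gad1 (0.50) and Syp (-0.11, or 0.036 without KE replicate 1 and 0.009 after quantile normalization) were not called. The Gad1 log2FC was 0.20 without KE replicate 3, its highest culture, and 0.70 without KE replicate 1, where it was called (limma adjusted p = 0.0283), as it was after quantile normalization. Of 7 oligodendrocyte lineage markers tested 6 fell, beside 26.0% of all tested genes, Olig2 (-0.55), Pdgfra (-0.87) and Cspg4 (-0.35) among the 6. The Cspg4 call was lost without a variance trend and without KE replicate 1, KE replicate 3 or NT replicate 2 (limma adjusted p from 0.0697 to 0.0972). Of 9 vascular and mesenchymal markers 4 fell and 2 rose, beside 26.0% lower and 25.3% higher over all tested genes. Acta2 was at -1.34, Lum at 0.39 and Col1a2 at 0.37. Neither rise was firm, since Lum lost its call without a variance trend and without KE replicate 2 or 3 or NT replicate 2 or 3 (limma adjusted p from 0.0553 to 0.0856). Col1a2 lost it without a variance trend and without KE replicate 1 or 3 or NT replicate 1, and its log2FC was 0.21 without NT replicate 1. The part of these cells, of the interferon response and of transfection itself in the NF-kappaB gene changes was not tested.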

How the data were processed

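RNA-Seq was made from 6 cultures, 3 KE and 3 NT, with a stranded mRNA kit. Per the methods and the submitters' processing notes, the authors trimmed reads with Trim Galore, aligned them with STAR, quantified genes with Salmon and scaled them with DESeq2, adjusting their own tests for batches that are not named. The deposited table holds these normalized counts, a signal on a linear scale (size-factor scaled), with no raw counts. Whole reads could not be recovered, since 74.6 to 77.5% of low values were within 0.1 of a whole multiple, so no count model was used. The mouse annotation is given as GRCm39 in the methods, while the label names GRCh38.

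Here, limma 3.58.1 (R 4.3.3) was fitted with a variance trend to log2(normalized count + 1) keeping genes whose mean reached 10, by group alone, two-sided, with Benjamini-Hochberg adjustment over 15280 genes and calls under 0.05. An exact permutation test of 3 against 3 cannot go below p = 0.1 and was not used. Gene coordinates and lengths came from Gencode on GRCm39, and promoters from RefSeq on GRCm38.p6. The 10 members and all gene lists were chosen with earlier results of these data known. The text names all members, per pathway list the largest rise and fall called and the highest mean, up to 4 target genes in each direction, the 3 highest markers by mean, and Braf. A gene that this rule names is not reported here. A few other pathway genes, identified in the text, were added after their values were seen. Alternatives changed the pseudocount, filter, scaling, variance trend, replicate block, gene length or left out a culture.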

Additional observations from a re-analysis of the deposited data

How the results depend on the processing

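Over 59 results and 800 alternatives, 766 kept their direction and side of the threshold (or stayed within 1.5 times of a count), 20 lost a call, 6 gained one, 4 counts moved and 4 turned their sign. The sign turned only in genes that were called neither before nor after: on leaving out a culture, the log2FC of Nfkbie ran from -0.186 to 0.051 (above 0 without NT replicate 2), that of Irak1 from -0.023 (without KE replicate 3) to 0.108, and that of Syp from -0.217 to 0.036 (above 0 without KE replicate 1, and 0.009 after quantile normalization). Of the members, 8 kept their side of the threshold in all 14 alternatives, and Rela and Nfkb1 did not (values in the report). The number of other pathway genes called lower, 3, was 5 after quantile normalization and 3 to 5 on leaving out a culture. With the longest transcript in place of merged exons, 5 members in NT and 6 in KE kept their rank by level. Calls were also lost in at least 1 alternative by Slc1a3, Cspg4, Lum and Col1a2, and gained by Map3k7 and Gad1. The causes were not tested.

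Same-numbered KE and NT cultures had deviations correlated at 0.0589, 0.0664 and 0.0651, against -0.0499 to -0.0105 for different numbers, across genes. Each culture correlated best with its own number, a hint from the data and not from the design, and the values were too low to treat the numbers as pairs. With the replicate block, 8046 of 15280 genes were called in place of 7844, the members still numbered 7 higher and 1 lower, the other pathway genes 10 higher and 4 lower, and Map3k7 was called (log2FC -0.16, limma adjusted p = 0.0355). The number of cultures, 3 a group, limits the precision, and Rel had the fewest reads of the members.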
